A study of Mus musculus with 9 samples.

Results

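The 39 Hox genes of the mouse were followed in whole aortae of 9 C57BL/6J mice. Members were all genes of the 4 Hox clusters, taken by symbol (Hoxa, Hoxb, Hoxc or Hoxd with a number from 1 to 13), and all 39 were found among the 55453 genes in the count table. Of the 3 genotypes, Itga8-Cre (3 mice) has the CreERT2 recombinase, switched on by tamoxifen, under control of Itga8, an integrin gene of vascular smooth muscle. Myh11-Cre (3 mice) has Myh11-CreERT2, where the smooth muscle myosin gene Myh11 drives the same recombinase, and Wild Type (3 mice) is labelled with neither. All 9 mice share the strain, and their labels give no age, sex, tamoxifen treatment, dissection limits or batch. The series set the new Itga8-CreERT2 mouse beside the widely used Myh11-CreERT2 mouse.

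Hox genes encode transcription factors that bind DNA through a homeodomain, and they lie in clusters in which the order of the genes matches the order of their domains along the body axis. Low-numbered genes are used towards the head and high-numbered genes towards the tail, and genes of the same number in different clusters, called paralogs, descend from 1 ancestral gene. Adult cells of the vessel wall, of fat and of connective tissue keep a combination of Hox transcripts that reflects where along the body they lie, so the Hox genes in a piece of tissue record its position.

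The homeobox, the part of the gene that encodes the homeodomain, is the sequence that makes these genes a family. It is shown for Hoxa5, the Hox gene with the highest level in these aortae. The sequence is from a GENCODE M21 transcript (genome build GRCm38), 180 bases written 5′ to 3′ on the strand of the gene. Capitals mark the bases that encode the conserved core of the DNA-recognition helix, by which the homeobox was located in each gene.
Hoxa5: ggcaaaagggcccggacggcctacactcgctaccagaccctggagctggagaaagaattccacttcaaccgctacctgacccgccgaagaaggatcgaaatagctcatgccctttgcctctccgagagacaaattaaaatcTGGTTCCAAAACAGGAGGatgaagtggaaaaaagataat
The Hoxa5 homeobox lies at chr6:52202632-52202811 on the minus strand, within exon 2 of 2. Over all 39 genes, paralogs of 1 group had a median of 145 identical bases in the homeobox (121 to 169), against 109 (83 to 155) for pairs that shared neither group nor cluster. Reads were 75 bases long, and no 2 genes of different clusters shared a run of 75 bases in their transcripts; the longest was 52 bases, in Hoxa6 and Hoxb4. Within clusters, Hoxd3 with Hoxd4 and Hoxc5 with Hoxc10 shared exon sequence, so the counts of these genes are uncertain. The Hoxd4 exons were shared with same-strand neighbours over 52.3% of their bases and the Hoxd3 exons over 62.3%. The library kit marked strand, but whether counting used it is not given, so counts of genes that overlap antisense transcripts, such as Hoxa3, Hoxb3 and Hoxb5, are uncertain too.

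Depth ran from 31419238 to 42497543 counts per library. Hox genes took 2685 to 4402 counts of a library, 0.0082% to 0.0117% of its total. The aorta label was checked on 10 smooth muscle markers, all of which were detected, with a summed level of 1210 to 3760 CPM (counts at an equal library size, with TMM correction for composition). Transcripts of surrounding tissue varied widely: 10 skeletal muscle markers summed to 91.3 to 16600 CPM, 8 brown fat markers to 2350 to 7500 CPM and 7 markers of fat cells of either kind to 4200 to 9090 CPM. Itga8 was at 54.1, 76.5 and 62.9 CPM in Itga8-Cre aortae, 72.4, 298 and 300 CPM in Myh11-Cre aortae and 475, 147 and 196 CPM in Wild Type aortae. Itga8 was thus lower in every Itga8-Cre aorta than in every Wild Type aorta, though edgeR's quasi-likelihood test did not call it (log2 fold change -2.08, adjusted p = 0.699; DESeq2 adjusted p = 0.0493). In whole tissue, fewer cells of a type and less RNA per cell cannot be told apart, and that holds for each Hox level here.

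The aortae held a middle stretch of the Hox code. Of the 39 genes, 26 had enough counts to be tested, 21 of them with a mean of at least 1 CPM over the 9 aortae and 5 below it, and 13 did not pass the filter on low counts. All 19 genes of paralog groups 4 to 9 were tested, and so were 26 of the 30 genes of groups 1 to 10, but none of the 9 genes of groups 11 to 13. By cluster, 9 of 11 Hoxa genes, 8 of 10 Hoxb genes, 6 of 9 Hoxc genes and 3 of 9 Hoxd genes were tested. Hoxd, on chromosome 2, was the least represented, with Hoxd8 its single gene of at least 1 CPM, though Hoxd9 (0.999 CPM) and Hoxd4 (0.984 CPM) fell just short of it.

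**Figure D1:**
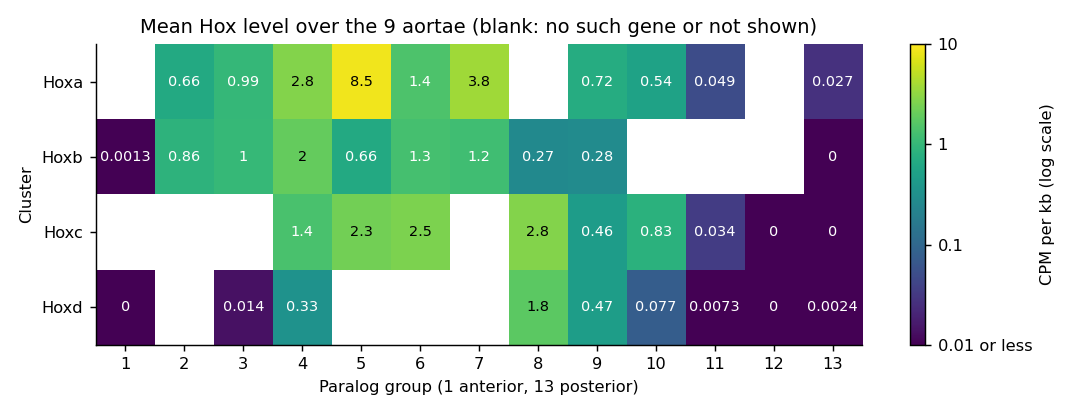
Mean level of Hox genes over 9 aortae, in CPM per kb of exon, by cluster (rows) and paralog group (columns), with the value printed in the cell and colour on a log scale (blank cells: no such gene or not shown). Hoxa5 at 8.5 is the highest cell, and groups 11 to 13 lie below 0.1 in every cluster.

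Levels of different genes were compared per kb of exon. Hoxa5, which patterns the airway and neck skeleton in the mouse embryo (chromosome 6, 52201754 to 52204587, minus strand), was the highest, with a mean of 8.53 CPM per kb and a range of 5.81 to 12.4 over the 9 aortae. Its CPM was 19.9, 10.9 and 13.2 in Itga8-Cre aortae, 23.2, 11.8 and 17.2 in Myh11-Cre aortae and 16.1, 13.3 and 18.4 in Wild Type aortae. Its lowest aorta lay above the highest aorta of every other Hox gene on the per-kb scale. The mice of the 3 genotypes overlapped, and each Cre genotype held both higher and lower values than the Wild Type range.

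Hoxa7, next in order, had a mean of 3.76 CPM per kb (2.57 to 5.01) and lay above Hoxa4 in 9 of 9 aortae. From there the order was close. Hoxa4 and Hoxc8 both averaged 2.80 CPM per kb, and Hoxa4 was above Hoxc8 in 5 of the 9 aortae. Hoxc6 (2.53), Hoxc5 (2.28), Hoxb4 (1.96) and Hoxd8 (1.75) followed. Each was above the next in 6 to 8 of 9 aortae, so that neighbours in this stretch were not in the same order in every mouse. Below them came Hoxa6 at 1.44, Hoxc4 at 1.37, Hoxb6 at 1.29, Hoxb7 at 1.21 and Hoxb3 at 1.03 CPM per kb. The other 13 tested genes lay under 1 CPM per kb, down to 0.265 for Hoxb8.

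Summed by position, paralog groups 5 to 8 held most of the Hox transcripts. Their share of all Hox CPM per kb was 62.2% to 67.7% over the 9 aortae, with 22.7% to 28.3% for groups 1 to 4 and 5.85% to 10.5% for groups 9 to 13. Group 5 alone held 23.6% to 33%. By cluster, Hoxa held 43% to 53.6%, Hoxc 22.4% to 28.9%, Hoxb 14.8% to 25% and Hoxd 5.1% to 9.45%. These bands did not overlap between the 3 zones, and Hoxa and Hoxd were the highest and lowest cluster in each of the 9 aortae.

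At the head end, Hoxa2, which acts in the hindbrain and the second pharyngeal arch of the embryo, had 0.885 to 1.58 CPM. Hoxb1 had 1 count in all 9 libraries and Hoxd1 none. Hoxa3, needed in the mouse for the third pharyngeal arch and its artery, had 4.72 to 7.19 CPM, and Hoxb2 and Hoxb3 had 2.24 to 3.65 and 3.57 to 5.39 CPM. Group 3 was thus present through Hoxa3 and Hoxb3, while Hoxd3 had 19 counts in all.

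At the tail end, Hoxa9, which is active in endothelial and blood cells, had 2.58 to 7.25 CPM, and Hoxa10 and Hoxc10 had 0.885 to 3.01 and 1.02 to 2.6 CPM. Hoxd10 had 47 counts in all. The 9 genes of groups 11 to 13, which pattern the limb, hindgut and urogenital tract, had 95 counts together of 33410 Hox counts. Hoxb13, Hoxc12, Hoxc13 and Hoxd12 had no count in any library, which with a limit of 3 counts allows up to 0.00904 CPM over the 9 libraries (counting error only). The few posterior counts were uneven: groups 11 to 13 had 9, 27 and 5 counts in Itga8-Cre aortae, 7, 22 and 2 in Myh11-Cre aortae and 13, 7 and 3 in Wild Type aortae. Itga8-Cre 2 and Myh11-Cre 2 held the most, and in Itga8-Cre 2 Hoxa13, a gene of the limb tip and hindgut, had 11 of its 22 counts. Both libraries were also high in 6 cardiac muscle markers (7630 and 8300 CPM) as was Myh11-Cre 3 (7770 CPM), which had 2 such Hox counts, against 1340 to 4100 CPM in the other 6 libraries. Itga8-Cre 2 and Myh11-Cre 2 were the highest in 10 fibroblast markers too (2500 and 2700 CPM, against 1130 to 2290 CPM in the rest). Whether the tissue makeup of a library bears on these counts was not tested.

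Hox levels varied among the 9 mice, and much of the range was found within a genotype. Among the 21 genes of at least 1 CPM, the highest aorta was 1.51 times (Hoxb3) to 3.4 times (Hoxa10) the lowest, with a median of 1.95 times, and 10 of the 21 exceeded 2 times. The coefficient of variation over the 9 mice ran from 12.1% (Hoxc6) to 38.7% (Hoxa9) (all 3 genotypes pooled). Within a genotype, the highest of 3 mice was a median of 1.56 times the lowest in Itga8-Cre (1.04 to 3.05 times), 1.63 times in Myh11-Cre (1.09 to 2.85 times) and 1.36 times in Wild Type (1.14 to 2.2 times). The low values fell in certain mice. Itga8-Cre 3 was the lowest library for 8 of the 21 genes, Myh11-Cre 2 for 5, and Itga8-Cre 2 and Myh11-Cre 3 for 4 each, while Itga8-Cre 1, Myh11-Cre 1 and the 3 Wild Type aortae were the lowest for none. Highest values were spread over more mice. Itga8-Cre 1 and Myh11-Cre 1 were the highest for 4 and 5, and Itga8-Cre 2 and Wild Type 1 for 3 each. Itga8-Cre 1 and Myh11-Cre 1 had the most brown fat marker transcripts (7500 and 6990 CPM, against 2350 to 5330 in the other 7). They also had the least skeletal muscle marker transcripts (162 and 91.3 CPM, against 873 to 16600). Itga8-Cre 2 had the least brown fat marker transcripts (2350 CPM). Itga8-Cre 3, Myh11-Cre 2 and Myh11-Cre 3 had the most skeletal muscle marker transcripts (7240, 10500 and 16600 CPM). The part of these tissues in the Hox levels was not tested.

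**Figure D2:**
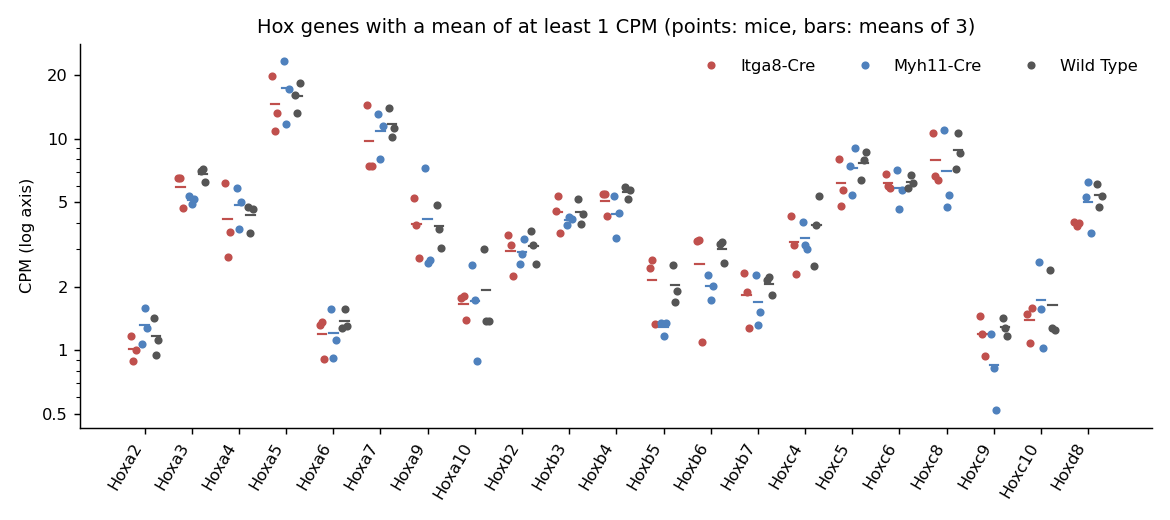
CPM (log axis) of the 21 Hox genes with a mean of at least 1 CPM, in order along each cluster, with 1 point per mouse and a bar at the mean of 3 mice for Itga8-Cre, Myh11-Cre and Wild Type. The points of the 3 genotypes overlap for most genes, and Hoxa5 is highest with 10.9 to 23.2 CPM.

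Some Hox genes varied together from mouse to mouse. Correlations were computed over the 9 aortae for all 210 pairs of the 21 genes, with exact permutation tests adjusted over the 210, and each genotype has too few mice (3) for a value of its own. All points share their library, so the depth, scaling and tissue makeup of a library act on both genes of a pair, as does any difference between the genotypes. Hoxc6 and Hoxc8, neighbours on chromosome 15, had Pearson r = 0.94 (adjusted exact permutation p = 0.00637) and Spearman rho = 0.95 (adjusted exact permutation p = 0.081). Without the 2 aortae farthest from the median of Hoxc6, r was 0.95. Hoxa4 and Hoxa5, neighbours on chromosome 6, had r = 0.94 (adjusted exact permutation p = 0.0299) and rho = 0.87 (adjusted exact permutation p = 0.134), and r stayed at 0.94 without the 2 farthest aortae. Pairs of different clusters reached the same size: Hoxa3 with Hoxb6 had r = 0.92 (adjusted exact permutation p = 0.00637; 0.93 without the 2 farthest) and Hoxa6 with Hoxb7 had r = 0.92 (adjusted exact permutation p = 0.048; 0.75 without them). These were the 4 pairs past an adjusted p of 0.05 by Pearson, and none passed by Spearman, whose adjusted values for Hoxa3 with Hoxb6 and Hoxa6 with Hoxb7 were 0.134 and 0.141 (exact permutation). With the genotype means subtracted, an alternative added after seeing the data, r was 0.94 for Hoxc6 with Hoxc8, 0.94 for Hoxa4 with Hoxa5, 0.98 for Hoxa3 with Hoxb6 and 0.92 for Hoxa6 with Hoxb7. When mice were permuted only within their genotype, unadjusted exact permutation p-values of these pairs were 0.00463 (the smallest that 216 permutations can give) to 0.0231. None of the 210 pairs passed (smallest adjusted exact permutation p = 0.347). After adjustment a pair could pass only if many pairs reached the smallest p together, so this test cannot decide on the 4 pairs. As a description, the median r was 0.47 over the 58 pairs of the same cluster and 0.33 over the 152 pairs of different clusters. The 15 pairs within Hoxb all had r above 0, with a median of 0.70, against 0.35 within Hoxa and 0.47 within Hoxc. Pairs of other genes were not computed, so whether any of these values is particular to Hox genes was not tested.

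**Figure D3:**
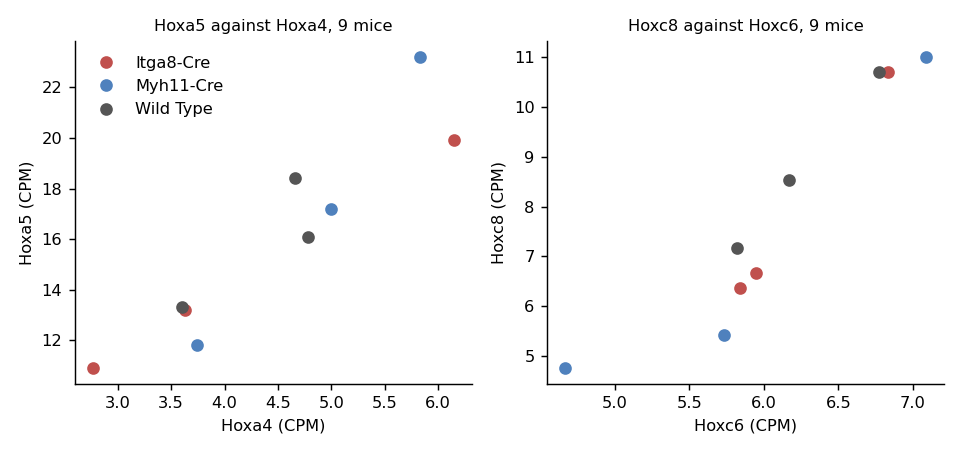
Hoxa5 against Hoxa4 (left) and Hoxc8 against Hoxc6 (right) in CPM, with 1 point for each of 9 aortae coloured by genotype. In both panels the points run from low on both axes to high on both, with r = 0.94 in each.

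Itga8-Cre aortae were set against Wild Type aortae to see whether the Hox code differed with the new Cre allele. No Hox gene was called. At an adjusted p under 0.05 over all genes tested, edgeR called 0 of 26 Hox genes (background 0% of the 19412 genes tested), limma 0 and DESeq2 0 (background 0.196%). At an unadjusted p under 0.05 edgeR had 1 of 26, Hoxb9, where the background was 6.78%. In 1 of 26, Hoxd8, the 3 Itga8-Cre mice lay apart from the 3 Wild Type mice, against a background of 11.1%. Both shares of the Hox genes were below the background.

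Hoxd8, a gene of the trunk, had 4.03, 3.87 and 4.01 CPM in Itga8-Cre aortae, against 6.14, 4.76 and 5.34 CPM in Wild Type aortae. Every Itga8-Cre mouse was below every Wild Type mouse, with means of 3.97 ± 0.0866 and 5.41 ± 0.694 CPM (SD, n = 3 each), but the difference did not pass the test (edgeR log2 fold change -0.45, SE 0.22, adjusted p = 0.699). In Myh11-Cre aortae the same gene had 5.28, 6.25 and 3.57 CPM, on both sides of the Itga8-Cre values. The other genes of at least 1 CPM with the smallest p were Hoxa3, Hoxc5, Hoxa7 and Hoxc4, with log2 fold changes of -0.20, -0.31, -0.28 and -0.28 and edgeR adjusted p of 0.749, 0.75, 0.81 and 0.827. All 4 overlapped between the genotypes, and single mice moved each of them. Without each library in turn, Hoxa3 was between -0.29 and -0.07 (nearest to 0 without Itga8-Cre 3), Hoxc5 between -0.54 and -0.17 (without Itga8-Cre 2) and Hoxa7 between -0.67 and -0.12 (without Itga8-Cre 3). Hoxc4 turned to 0.02 without Wild Type 3, the highest of the 9 at 5.36 CPM.

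Most Hox genes had a fitted value slightly below that of Wild Type. The log2 fold change was below 0 for 21 of 26, against a background of 44.1% of all genes, and its median was -0.17, against 0.036 over all genes tested. The 6 Hoxc genes were all below 0, as were 7 of 9 Hoxa and 7 of 8 Hoxb genes and 1 of 3 Hoxd genes. Genes of a library share its scaling and tissue, so these 26 signs are not independent. Many marker lists of the vessel and of other tissues also had fitted values to one side. Below 0 were 9 of 10 smooth muscle markers (median log2 fold change -0.63, groups apart for 5, against a background of 11.1%). So were all 8 endothelial (median -0.17), all 8 sympathetic neuron (-0.69) and 6 of 7 fat cell markers (-0.43). Above 0 were all 6 mesothelium (0.94), 6 of 7 macrophage (0.60) and all 10 skeletal muscle markers (1.24). All 6 cardiac muscle (0.67), all 6 thymic epithelium (1.46) and all 7 developing T cell markers (1.28) were above 0 too. Fibroblast markers were split, with 7 above 0 and 3 below. EdgeR and DESeq2 called none of these markers, and their part in the Hox levels was not tested. The Hox median was between -0.29 and -0.03 when each library was left out in turn. The 95% interval of the fold change lay within 2-fold either way for 19 of the 26.

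Myh11-Cre aortae were compared with Wild Type aortae in the same fit, with the same 3 Wild Type mice. Again no Hox gene was called: edgeR called 0 of 26 (background 0%), limma 0 and DESeq2 0, where DESeq2 called 4.31% of all genes tested. At an unadjusted p under 0.05 edgeR had 2 of 26, Hoxa3 and Hoxb9, against a background of 16.4%. The groups lay apart for 5 of 26 genes, Hoxa3, Hoxb5, Hoxb6, Hoxb8 and Hoxb9, against a background of 26%. Both shares were again below the background, and all 5 genes were lower in Myh11-Cre aortae.

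Hoxa3 had 5.39, 4.91 and 5.18 CPM in Myh11-Cre aortae, against 7.04, 7.19 and 6.25 CPM in Wild Type aortae. The means were 5.16 ± 0.241 and 6.83 ± 0.508 CPM (SD, n = 3 each), and the groups did not overlap (edgeR log2 fold change -0.40, SE 0.16, unadjusted p = 0.0367, adjusted p = 0.278). Hoxb5, which acts in enteric neural crest, had 1.34, 1.17 and 1.35 CPM in Myh11-Cre aortae, against 2.52, 1.69 and 1.90 CPM in Wild Type aortae. Its means were 1.29 ± 0.105 and 2.04 ± 0.431 CPM (SD, n = 3 each; edgeR log2 fold change -0.66, SE 0.30, adjusted p = 0.316). Hoxb6 had 2.27, 1.73 and 2.01 CPM in Myh11-Cre aortae, against 3.19, 3.25 and 2.58 CPM in Wild Type aortae. The groups lay apart for each of these genes, and none passed the test (Hoxb6 log2 fold change -0.59, edgeR adjusted p = 0.454). Hoxc9, a gene also used as a marker of white fat depots, and Hoxb4 overlapped between the genotypes, with log2 fold changes of -0.60 and -0.35 and edgeR adjusted p of 0.387 and 0.395. Hoxc9 was -0.34 without Myh11-Cre 3 and -0.93 without Myh11-Cre 1, and Hoxb4 was -0.19 without Myh11-Cre 2. Without the 3 libraries richest in skeletal muscle transcripts (Itga8-Cre 3, Myh11-Cre 2 and Myh11-Cre 3, chosen after seeing the data), Hoxc9 was -0.09 and Hoxb4 -0.07.

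All 8 tested Hoxb genes had a fitted log2 fold change below 0 in Myh11-Cre aortae, while 4 of 9 Hoxa genes did, with 5 of 6 Hoxc genes and 2 of 3 Hoxd genes. Over the 26, 19 were below 0, against a background of 49.1%, and the median was -0.15, against 0.007 over all genes tested. That median was -0.39 without Myh11-Cre 1 and -0.03 without the 3 libraries richest in skeletal muscle transcripts. The second fit left Myh11-Cre 1 as the only Myh11-Cre mouse, so it cannot tell the muscle transcripts from that mouse. The summed Hoxb level was 7.28, 5.66 and 6.62 CPM per kb in Myh11-Cre aortae, against 9.20, 8.76 and 7.64 in Wild Type aortae, and did not overlap. In Itga8-Cre aortae it was 8.67, 8.81 and 5.22 CPM per kb, on both sides of the Myh11-Cre range. The 8 sympathetic neuron markers, which include Th and Dbh of catecholamine synthesis, moved in the same direction, with a summed level of 200, 99.5 and 47.9 CPM in Myh11-Cre aortae, against 228, 471 and 584 CPM in Wild Type aortae. None of these 8 markers was at 0, edgeR called none of them, DESeq2 called all 8, and they were not the only markers to differ. All 6 mesothelium (median log2 fold change 1.43, DESeq2 called 4), all 6 thymic epithelium (2.09, DESeq2 called 2), all 10 skeletal muscle (2.60, none called) and all 6 cardiac muscle markers (1.36, none called) had fitted values above 0. Below 0 were 4 of 5 tested kidney and adrenal cortex markers (-3.54, DESeq2 called 2) and 7 of 10 smooth muscle markers (-0.20, none called). Among the 3 Wild Type mice, the Hoxb and sympathetic neuron sums ran in opposite order. The part of any of these tissues in the Hoxb levels was not tested.

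**Figure D4:**
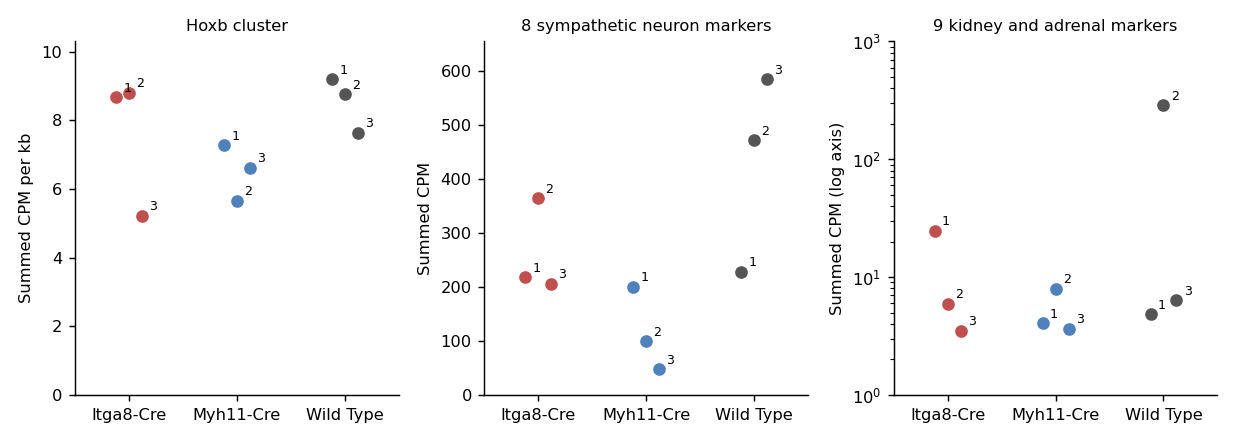
Summed level per aorta of the Hoxb cluster (left, CPM per kb), of 8 sympathetic neuron markers (middle, CPM) and of 9 kidney and adrenal cortex markers (right, CPM, log axis), with 1 point per mouse labelled by its number. Myh11-Cre lies below Wild Type in the left and middle panels, and Wild Type 2 stands alone at 286 CPM on the right.

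Hoxb9, chosen after its values were seen, had the largest fold change in both comparisons with Wild Type, a size that came in large part from 1 mouse. It had 0.343, 0.802 and 0.206 CPM in Itga8-Cre aortae and 0.520, 0.365 and 0.521 CPM in Myh11-Cre aortae, against 0.927, 2.22 and 0.547 CPM in Wild Type aortae. Wild Type 2 was the highest of the 9. The edgeR log2 fold change was -1.44 (SE 0.61, adjusted p = 0.699) in Itga8-Cre and -1.39 (SE 0.61, adjusted p = 0.304) in Myh11-Cre aortae. Over the fits without each library in turn, Hoxb9 was between -2.17 and -0.71 in Itga8-Cre and between -1.74 and -0.64 in Myh11-Cre aortae, both nearest to 0 without Wild Type 2. Without that mouse, no Hox gene had an unadjusted p under 0.05 in either comparison, while the other 2 Wild Type values still lay above the 3 of Myh11-Cre. The same mouse stood apart in markers of kidney and adrenal cortex, whose 9 genes summed to 286 CPM there, against 3.51 to 24.7 CPM in the other 8 aortae. Most of this was Star, of steroid synthesis, at 148 CPM, while Umod of the kidney tubule was at 0 in all 9 libraries. Whether adrenal tissue bears on the Hoxb9 level of Wild Type 2 was not tested.

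Itga8-Cre and Myh11-Cre aortae were compared directly. EdgeR called 0 of 26 Hox genes (background 0%), limma 0 and DESeq2 0 (background 0.134%). At an unadjusted p under 0.05 edgeR had 1 of 26, Hoxb5 (background 9.48%), and the groups lay apart for none of the 26 (background 12.7%). Hoxb5 had 2.46, 2.68 and 1.33 CPM in Itga8-Cre aortae, against 1.34, 1.17 and 1.35 CPM in Myh11-Cre aortae. The third Itga8-Cre mouse lay within the Myh11-Cre range, and the means were 2.16 ± 0.727 and 1.29 ± 0.105 CPM (SD, n = 3 each; edgeR log2 fold change 0.74, SE 0.30, adjusted p = 0.521). Hoxd8, Hoxc9, Hoxa2 and Hoxa3 had log2 fold changes of -0.34, 0.49, -0.36 and 0.20, with edgeR adjusted p of 0.624, 0.638, 0.658 and 0.685. The log2 fold change was below 0 for 13 of 26 (background 48.7%), with 8 of 9 Hoxa genes below 0 and 7 of 8 Hoxb genes above it, and the median was 0.00. The comparison shares its libraries with those above.

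**Figure D5:**
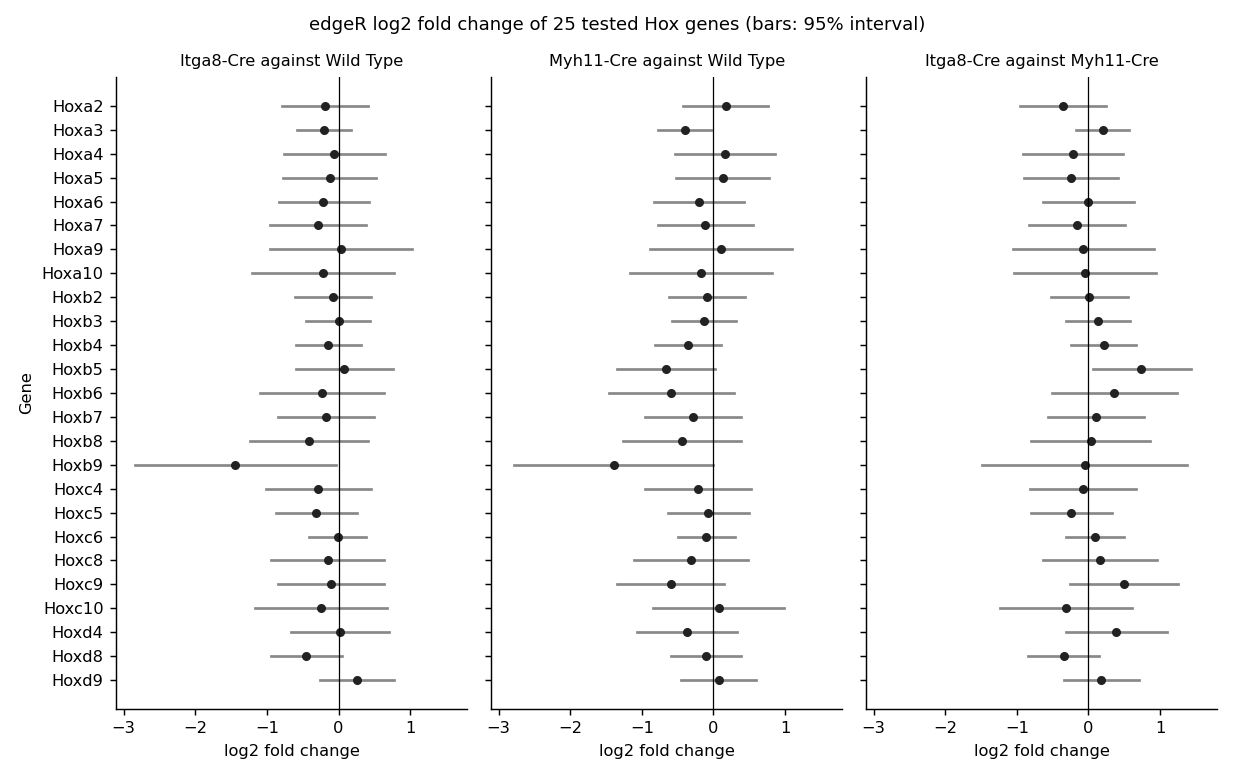
Log2 fold change from edgeR of 25 tested Hox genes (rows, in order along each cluster) in the 3 comparisons, with points for the estimate and bars for the 95% interval. The bars cross 0 for all genes but Hoxb9 (both comparisons with Wild Type), Hoxa3 (Myh11-Cre against Wild Type) and Hoxb5 (Itga8-Cre against Myh11-Cre), and no gene passed the adjusted test.

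Partners and keepers of the Hox genes were present throughout. Hox proteins bind DNA together with some homeodomain proteins of the TALE class. All 11 listed genes of this class, Hox partners or not, were tested. They summed to 151 to 183 CPM, and per kb Pbx2 was the highest with 7.72, with Pknox1 at 2.92, Meis1 at 1.94 and Meis2 at 1.70 CPM per kb. EdgeR and DESeq2 called none in any comparison. At an unadjusted edgeR p under 0.05 there were 2 of 11 in Itga8-Cre against Wild Type aortae, both higher, and 1 of 11 in each of the other comparisons, where all genes had 6.78% (Itga8-Cre against Wild Type), 16.4% (Myh11-Cre against Wild Type) and 9.48% (Itga8-Cre against Myh11-Cre). Tgif1 had 8.01, 11.5 and 9.62 CPM in Itga8-Cre aortae, against 6.55, 5.21 and 6.17 CPM in Wild Type aortae (log2 fold change 0.70, edgeR adjusted p = 0.699). Pknox1 had 19.8, 22.2 and 23.2 CPM in Itga8-Cre aortae, against 18.6, 18.2 and 17.2 CPM in Wild Type aortae (log2 fold change 0.27, edgeR adjusted p = 0.699). Both genes lay apart between the genotypes without passing the test.

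Of the chromatin factors that hold Hox genes off or on, all 23 listed Polycomb genes and all 12 listed Trithorax genes were tested. EdgeR called none in any comparison, and DESeq2 called 1 of each list in Myh11-Cre against Wild Type aortae. In Myh11-Cre against Wild Type aortae, 5 of 23 Polycomb genes had an unadjusted p under 0.05 (4 lower, 1 higher), and 3 of 12 Trithorax genes did (all lower), beside the 16.4% of all genes given above. Of 15 tested genes of retinoic acid handling and Cdx factors, which set Hox domains in the embryo, edgeR called none in any comparison. At an unadjusted p under 0.05 there were 2 in Itga8-Cre against Wild Type, 3 in Myh11-Cre against Wild Type and 2 in Itga8-Cre against Myh11-Cre aortae, to be read against the same shares of all genes. DESeq2 called 1 in Myh11-Cre against Wild Type aortae, where it called 4.31% of all genes. Cdx2 and Cdx4 had no count. Of 22 noncoding transcripts of the clusters, 11 were found by name and 7 were tested. EdgeR and DESeq2 called none of them, and 1, Hoxb5os, had an unadjusted edgeR p under 0.05, in Itga8-Cre against Wild Type aortae (edgeR adjusted p = 0.699; 6.78% of all genes). Hotairm1, at the anterior end of the Hoxa cluster, had 0.740 to 1.46 CPM and Hoxb3os 1.65 to 2.84 CPM, while Hotair, of the posterior Hoxc cluster, and Hottip, beyond Hoxa13, were close to 0 (at most 0.0277 and 0.0520 CPM), as were the posterior Hox genes beside them. Of the genes that flank the clusters, 12 of 15 were tested, edgeR and DESeq2 called none, and 1 had an unadjusted edgeR p under 0.05 (Myh11-Cre against Wild Type, where 16.4% of all genes did). Evx1, next to Hoxa13, had no count.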

How the data were processed

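Total RNA from whole aortae of 9 mice was sequenced as single-end reads of 75 bases after a strand-marking polyadenylated RNA kit, per the labels' protocols. The authors deposited whole-number counts per gene, and a second table of signal, counts divided by 1 size factor per sample, used here only to check that these are median-of-ratios factors. Per the submitters' processing notes the build was GRCm38.p6 and the tools were STAR 2.7.0f, fastp 0.20.0, Salmon 0.13.1, DESeq2, featureCounts and Subread 1.6.4, with no role given. In the sources used here, neither the annotation release nor the strand setting is stated.

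Of 55453 genes, 19412 passed filterByExpr by group and were fitted with edgeR 4.0.16 (R 4.3.3, TMM, robust quasi-likelihood, group means over 9 libraries, common biological coefficient of variation 0.294), with Benjamini-Hochberg adjustment over all of them and a threshold of 0.05. Levels are CPM on TMM-scaled totals, per kb of exon union from GENCODE M21 for comparisons between genes. Fits by DESeq2 1.42.0 and limma 3.58.1 (voom), other filters, normalizations and covariates, and leaving out each library were alternatives. The scripts were tested on simulated data. Pair correlations used exact permutations over 9 libraries (scipy 1.17.1). The members, the gene lists and the tests were chosen with earlier results of these data known. Genes named for fold change were the 5 of smallest p with a mean of at least 1 CPM in each comparison. Labels name separate mice, so p-values cover mouse-to-mouse spread. Intervals for counts cover counting error only. Some single genes and sequences are not reported here.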

Additional observations from a re-analysis of the deposited data

Results flagged for a closer look

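Hoxd11 had 10 counts over the 9 libraries, too few to compare the genotypes. It had 1, 4 and 1 counts in Itga8-Cre aortae, 0, 1 and 0 counts in Myh11-Cre aortae and 2, 1 and 0 counts in Wild Type aortae, and the Itga8-Cre mean exceeded the Myh11-Cre mean by 0.0481 CPM. Every Itga8-Cre mouse lay above the Wild Type mean of 0.0281 CPM and every Myh11-Cre mouse below it, but 2 of the Itga8-Cre mice had a single count. The difference is smaller than 3 counts of 1 library (0.0729 to 0.0885 CPM), so no direction was read from it. The gene did not pass the filter on low counts, and the difference was not tested.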

How the results depend on the processing

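Over all 20 alternatives in each of the 3 comparisons, no Hox gene was called, and the smallest adjusted p of a named Hox gene was 0.147. Of 590 values of levels and comparisons recomputed, 544 kept their direction and their side of the threshold or stayed within the spread. Another 45, all counts, moved by more than 1.5 times or between 0 and any other count, and 1 value reversed. The one reversed was Hoxc4 in Itga8-Cre against Wild Type aortae, with a log2 fold change of -0.53 to 0.02 over the leave-one-out fits, the highest without Wild Type 3. Over the leave-one-out fits, the median log2 fold change of the Hox genes was -0.29 to -0.03 in Itga8-Cre against Wild Type. It was -0.39 to -0.14 in Myh11-Cre against Wild Type and -0.09 to 0.15 in Itga8-Cre against Myh11-Cre. Over all alternatives it was -0.31 to -0.03, -0.39 to -0.03 and -0.10 to 0.15 in the same order. In Myh11-Cre against Wild Type the -0.03 came from the fit that left 1 Myh11-Cre mouse.

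Calls over all genes were 0 with edgeR in each comparison, while DESeq2 called 38 in Itga8-Cre against Wild Type, 836 in Myh11-Cre against Wild Type and 26 in Itga8-Cre against Myh11-Cre. In Myh11-Cre against Wild Type edgeR called 1 gene without a filter, 1 under a replicate block on mouse number and 1 under a brown fat covariate. Leaving out the 2 libraries poorest in skeletal muscle transcripts (Itga8-Cre 1, Myh11-Cre 1), chosen after seeing the data, gave 265 calls there. The fit without the 3 richest (Myh11-Cre 2, Myh11-Cre 3, Itga8-Cre 3) was also chosen after seeing the data. It left 1 Myh11-Cre mouse, so its calls are not given. In Itga8-Cre against Myh11-Cre edgeR called 1 gene under the brown fat covariate. None of these was a Hox gene, and the cause was not tested. Hox genes at an unadjusted p under 0.05 ranged from 0 to 2 in both comparisons with Itga8-Cre aortae and from 0 to 4 in Myh11-Cre against Wild Type. Mouse numbers were not taken as pairs, and the labels do not say whether a number links mice of different genotypes. Residuals of libraries with the same number correlated at 0.00 to 0.43, above 0.1 in 6 of 9 pairs. Those of libraries with different numbers correlated at -0.40 to 0.22, so the residuals were more alike within a number. With the number as a block, 0 Hox genes were called. The number of Hox genes of at least 1 CPM, 21, was 21 to 23 without each library in turn, 26 at a threshold of 0.5 CPM and 14 at 2 CPM. Depth limits the 13 untested genes, which had 0 to 47 counts each, and their genotypes cannot be compared.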
